A study of Mus musculus with 8 samples.

Results

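This group holds 43 of the 19505 named genes measured, those that lay clearly higher in activated mouse T cells kept with human beta-defensin-2 (hBD-2) than in those kept with buffer, after a set of symbols was left out. A gene was taken when its mean over the hBD-2 arrays exceeded that over the PBS arrays by at least 0.5 on the log2 scale, when its lowest hBD-2 array lay above its highest PBS array, and when its mean over all 8 arrays was at least 4.74, which 40% of genes did not reach. These numbers were met by 50 genes, 0.256% of all. Of these, 7 were left out by name (Myb, Klf3, Cd80, Zmat3, Dglucy, Phlda3 and Cpa3). Predicted, non-coding, antigen receptor and olfactory receptor genes were to be left out by the form of their symbols, and none of the 50 had such a symbol. Because the difference between the groups chose the genes, their own differences are a description and no test of them is given. Limma's adjusted p, at a threshold of 0.05 over all genes, was passed upward by 33 of the 43 genes, against a background of 0.8% of all genes, and nothing is read from that count. In all, 5.51% of genes had every hBD-2 array above every PBS array and 9.36% had the opposite.

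The cells came from 4 male C57BL/6 wildtype mice, whose splenic T cells of the CD4 and CD8 lineages were purified untouched and activated at 1 bead per cell with beads coated in anti-CD3 and anti-CD28. For the hBD-2 group they were kept for 48 h with hBD-2 at 60 µL/mL, a volume per volume from which no mass concentration follows, and gave 4 arrays numbered 1 to 4. For the PBS group they had the same beads and time with phosphate-buffered saline, and gave 4 arrays numbered 1 to 4. No label ties an array to a mouse, so the spread between arrays may be partly technical.

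The peptide hBD-2 is a cationic defensin that epithelia secrete against microbes and that also acts on cells of the immune system. T cells stimulated through CD3 and CD28 leave quiescence, enlarge, divide and reshape their surface within a few days. The 43 genes come from several functional groups. They include extracellular proteases and clotting proteins, surface receptors, regulators of transcription and RNA processing, proteins of the spindle and the cytoskeleton, a few enzymes, and genes best known from neurons or other excitable cells.

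All values are deposited log2 values from robust multi-array average processing (RMA), and a difference is always the hBD-2 mean minus the PBS mean on that scale, with its standard error (SE) from the limma fit. The interquartile range of an array, over all genes, was 3.42 to 3.63 on the hBD-2 arrays and 3.60 to 3.75 on the PBS arrays, and it was narrowest on hBD-2 replicates 3 and 4. The levels rank probe signals and not the amounts of different RNAs, since probes differ in brightness. The 14 T cell markers had a median level of 10.4 (Cd3e 11.5, Cd8b1 11.1, Cd4 9.79), and none of them passed the threshold in either direction.

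The differences of the 43 genes were small and closely spaced. They ran from 0.50 to 1.15 with a median of 0.58, which corresponds to 1.49-fold, while the median over all genes was 0.02. A difference of at least 2-fold was found for 1 gene, Mmp12, and one of at least 1.5-fold for 18 genes. The distance between the lowest hBD-2 array and the highest PBS array ranged from 0.0026 to 0.44 with a median of 0.16, and it exceeded 0.3 in 8 genes and stayed under 0.1 in 13. Their mean levels ran from 4.77 to 10.5, with 21 of them below 6 and 9 at or above 8.

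**Figure D1:**
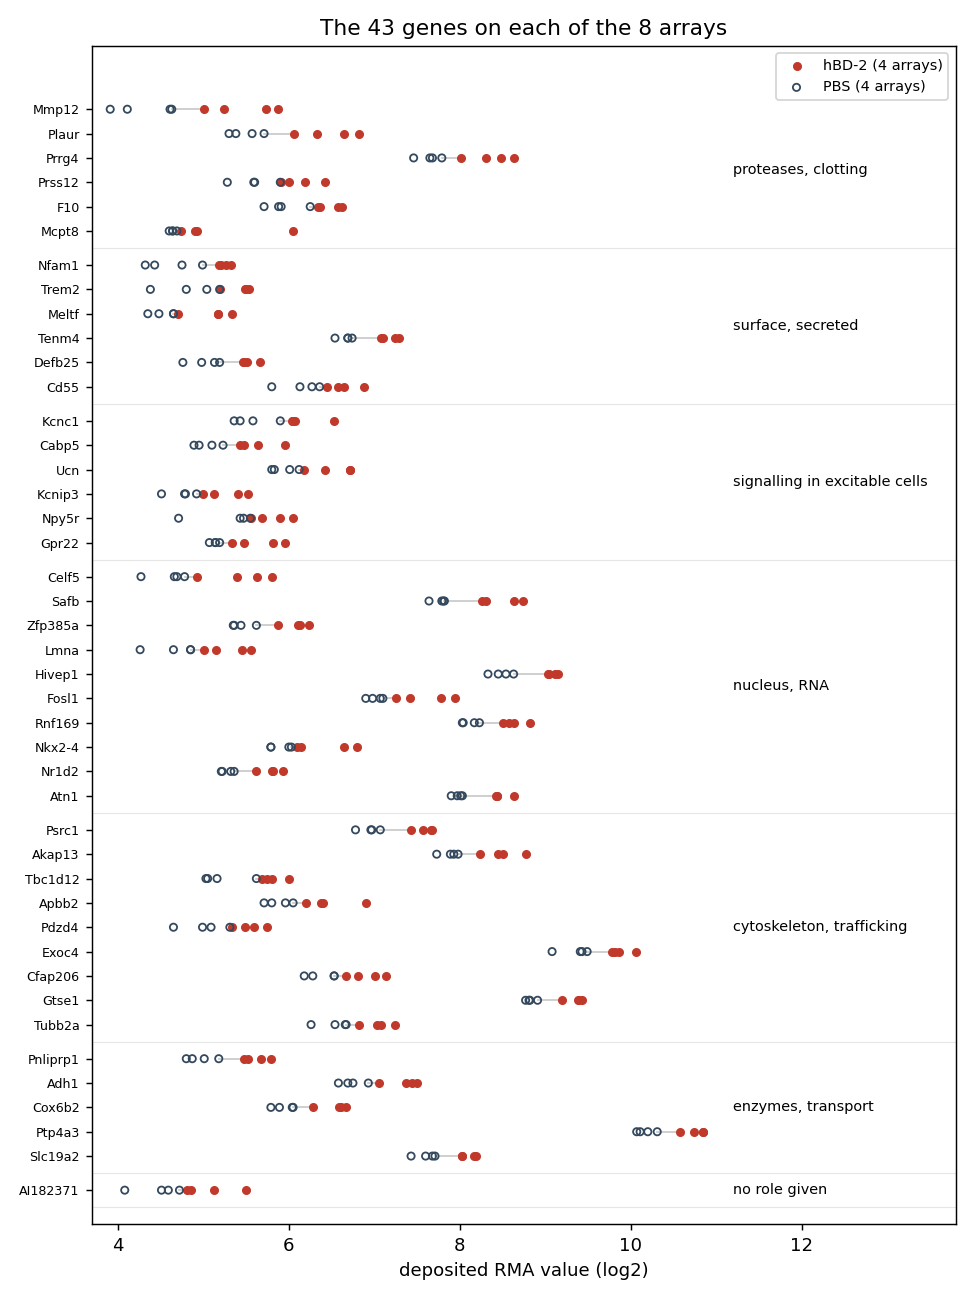
Deposited log2 RMA value (x axis) of each of the 43 genes (rows, grouped by role) on the 4 hBD-2 arrays (filled red points) and the 4 PBS arrays (open dark points), with a grey line over the distance between the groups. The groups do not overlap in any row, because the choice required that, and most rows lie below a level of 8.

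The promoters of Plaur, Mmp12, Lmna and Kcnip3 are shown because they carry the letters of an AP-1 site, and Fosl1, another of the 43 genes, encodes a subunit of the AP-1 transcription factor. Each is the RefSeq window of the assembly GRCm38.p6 from 250 bases before to 50 bases after a gene start, written in the gene's direction, with the AP-1 site in capitals (TGACTCA or, on the other strand, TGAGTCA).
Plaur, chr7:24462233-24462532, + strand: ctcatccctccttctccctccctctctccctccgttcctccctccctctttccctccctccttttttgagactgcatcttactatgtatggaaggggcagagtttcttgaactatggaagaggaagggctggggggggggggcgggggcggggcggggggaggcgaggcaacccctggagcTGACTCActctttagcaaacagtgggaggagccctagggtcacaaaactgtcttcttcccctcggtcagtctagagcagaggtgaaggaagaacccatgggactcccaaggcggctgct
Mmp12, chr9:7347124-7347423, + strand: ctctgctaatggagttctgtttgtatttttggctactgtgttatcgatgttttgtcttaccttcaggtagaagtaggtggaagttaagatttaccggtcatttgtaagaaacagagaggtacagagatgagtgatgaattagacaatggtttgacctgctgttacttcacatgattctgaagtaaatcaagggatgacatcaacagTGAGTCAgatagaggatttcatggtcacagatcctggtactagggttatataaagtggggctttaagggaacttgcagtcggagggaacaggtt
Lmna, chr3:88503303-88503602, - strand: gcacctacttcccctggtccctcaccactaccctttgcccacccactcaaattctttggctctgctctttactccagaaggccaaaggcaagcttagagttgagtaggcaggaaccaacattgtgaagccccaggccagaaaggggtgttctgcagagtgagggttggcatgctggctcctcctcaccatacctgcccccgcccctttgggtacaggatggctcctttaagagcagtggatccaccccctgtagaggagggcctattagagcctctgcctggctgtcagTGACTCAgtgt
Kcnip3, chr2:127522045-127522344, - strand: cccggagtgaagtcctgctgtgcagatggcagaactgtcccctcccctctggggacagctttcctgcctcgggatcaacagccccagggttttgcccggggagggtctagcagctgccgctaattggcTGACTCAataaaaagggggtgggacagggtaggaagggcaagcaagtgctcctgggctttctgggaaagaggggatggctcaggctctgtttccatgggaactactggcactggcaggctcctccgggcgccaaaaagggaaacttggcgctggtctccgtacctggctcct

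The site starts at base 182 of the Plaur window, base 207 of the Mmp12 window, base 290 of the Lmna window and base 129 of the Kcnip3 window. Of the 43 genes, 39 were matched in the promoter table with 55 windows, and Atn1, Defb25, Fosl1 and Ptp4a3 were not. An AP-1 site was held by 7.27% of these windows and by 4.74% of the 19143 windows of all named genes, which makes 4 windows of 4 genes. The other motifs were searched on both strands in the same way. The p53 half-site was in 9.09% of the windows (Celf5, Exoc4, Gtse1, Lmna and Pnliprp1) against 7.36% of all, the CRE (TGACGTCA) in 3.64% (Tubb2a and Ucn) against 2.31%, and the E-box CACGTG in 3.64% (Adh1 and Npy5r) against 8.11%. The GC box GGGCGG was in 47.3% against 47.9%, the CCAAT box in 43.6% against 37.9%, the TATA box TATAAA in 10.9% against 12.3%, and a loose NF-kB pattern (3 G, any 5 bases, 2 C) in 72.7% against 58.1%. Neither of the AP-1 and CRE patterns contains the other, whereas a GC box can lie within the loose NF-kB pattern. These shares describe letters in a window and not binding, and a part of Fosl1 in the values of these genes was not tested. The median GC content was 60.0% in the windows of the 43 genes and 57.0% in all windows.

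Genes of extracellular proteolysis and clotting held the 2 largest differences. Mmp12 encodes the macrophage metalloelastase, an enzyme that degrades elastin. It had 5.01, 5.73, 5.24 and 5.87 on the hBD-2 arrays, against 3.91, 4.61, 4.11 and 4.63 on the PBS arrays. In both groups replicates 2 and 4 were the high ones. The difference was 1.15 (SE 0.210), or 2.21-fold. Plaur encodes the receptor for urokinase, which focuses plasminogen activation on the cell surface. It had 6.65, 6.82, 6.06 and 6.33 on the hBD-2 arrays, against 5.57, 5.30, 5.38 and 5.71 on the PBS arrays, a difference of 0.97 (SE 0.159), or 1.97-fold. Here hBD-2 replicates 1 and 2 were the high ones. Prrg4 encodes a membrane protein with a Gla domain, the calcium-binding module of clotting factors. It had 8.48, 8.64, 8.02 and 8.31 on the hBD-2 arrays, against 7.65, 7.79, 7.46 and 7.68 on the PBS arrays, a difference of 0.72 (SE 0.134). Replicate 3 was the lowest in both groups. F10 encodes coagulation factor X, the zymogen of the protease that makes thrombin. It had 6.34, 6.36, 6.62 and 6.57 on the hBD-2 arrays, against 5.71, 6.25, 5.88 and 5.91 on the PBS arrays, a difference of 0.54 (SE 0.125). PBS replicate 2 came close to the hBD-2 arrays. Prss12, the neuronal serine protease neurotrypsin, differed by 0.54, and Mcpt8, a serine protease of basophils, by 0.51. Without hBD-2 replicate 4, which lay at 6.05, the difference of Mcpt8 was 0.21.

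**Figure D2:**
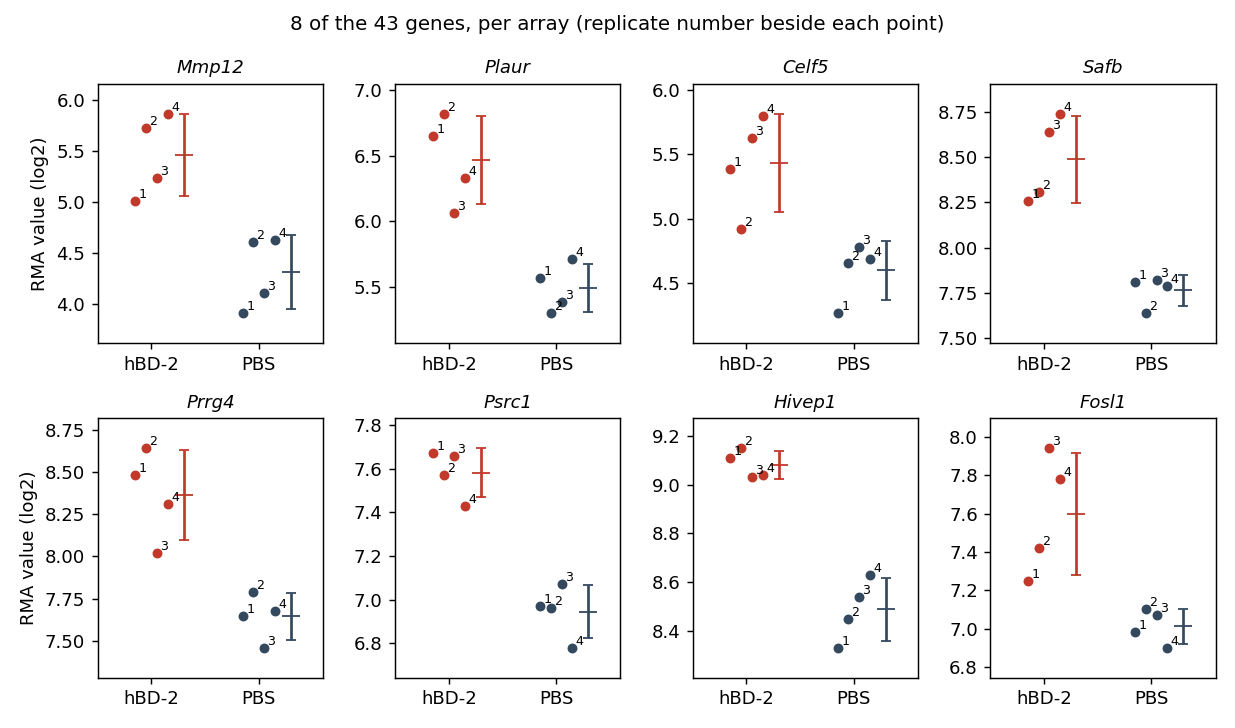
Log2 RMA value (y axis, not starting at 0) on each array for 8 of the 43 genes, hBD-2 left and PBS right, with the replicate number beside each point and the mean with its SD (n = 4) as a bar. Mmp12 has 5.01 to 5.87 on the hBD-2 arrays and 3.91 to 4.63 on the PBS arrays, while the hBD-2 arrays of Safb and Fosl1 form a lower pair (1 and 2) and a higher pair (3 and 4).

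No relative of these genes passed the threshold upward. Of 12 other measured genes of plasminogen activation, none was higher and 2 were lower past the threshold, where 0.8% of all genes were higher and 3.66% lower, and the median difference was -0.11. The 2 lower genes, Anxa2 and S100a10, encode the chains of the annexin A2 complex, which binds plasminogen on cells. Anxa2 had 8.50, 8.37, 8.20 and 8.06 on the hBD-2 arrays, against 9.62, 9.41, 9.21 and 9.41 on the PBS arrays, and fell by 1.13 (SE 0.121, limma adjusted p = 0.000678). S100a10 was at 8.84 ± 0.118 on the hBD-2 arrays and 9.47 ± 0.0505 on the PBS arrays (SD, n = 4 each), with no overlap between the groups, and fell by 0.63 (limma adjusted p = 0.00387). The urokinase receptor and the annexin A2 complex differed in opposite directions between the same groups. Of 23 other matrix metalloproteinases and their inhibitors, none passed the threshold in either direction (median 0.07, and -0.01 with quantile normalization). The 2 with the highest levels were Timp2 at a difference of 0.30 (limma adjusted p = 0.161) and Mmp23 at 0.43 (limma adjusted p = 0.0848). The threshold was passed by none of the 3 other proline-rich Gla genes (median 0.14), of 35 other genes with the stem Prss (median 0.12) or of 4 other Mcpt genes (median 0.01). With quantile normalization these medians were 0.06, 0.07 and -0.04.

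Surface and secreted proteins made up 6 genes, with levels from 4.81 to 6.92. Nfam1 encodes a receptor with an immunoreceptor tyrosine activation motif, known from B cells. It had 5.18, 5.27, 5.32 and 5.21 on the hBD-2 arrays, against 4.32, 4.99, 4.75 and 4.43 on the PBS arrays, a difference of 0.62 (SE 0.137). Its 4 hBD-2 arrays lay within a narrow band while its PBS arrays were spread (SD 0.0631 and 0.306, n = 4 each). Tenm4 encodes a teneurin, a large adhesion protein of the nervous system. It had 7.10, 7.08, 7.29 and 7.24 on the hBD-2 arrays, against 6.69, 6.54, 6.74 and 6.69 on the PBS arrays, a difference of 0.51 (SE 0.0925). Defb25 is itself a mouse beta-defensin gene, a relative of the peptide added. It had 5.47, 5.66, 5.51 and 5.46 on the hBD-2 arrays, against 4.76, 5.19, 5.13 and 4.98 on the PBS arrays, a difference of 0.51 (SE 0.110). None of the 38 other genes with the stem Defb passed the threshold in either direction (median 0.10, lowest -0.19, highest 0.38). The median was 0.06 with quantile normalization. Cd55 encodes decay-accelerating factor, which protects cells from complement and binds the adhesion receptor CD97. It had 6.88, 6.45, 6.58 and 6.65 on the hBD-2 arrays, against 6.13, 5.80, 6.36 and 6.27 on the PBS arrays, a difference of 0.50 (SE 0.134), and the groups were 0.09 apart. Trem2, a lipid-sensing receptor of myeloid cells, differed by 0.58, and Meltf, the iron-binding melanotransferrin, by 0.56.

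Several of these genes are known from cells other than T cells, and the markers of such cells were read beside them. In bulk RNA, more cells of a type and more RNA per cell cannot be told apart. Of 13 macrophage and monocyte markers, none was higher and 2 were lower past the threshold. Over all genes, 0.8% were higher and 3.66% lower. The 2 markers were Ly6c2 (-0.50, limma adjusted p = 0.0108) and Itgam (-0.62, limma adjusted p = 0.0461). The call of Itgam was lost without any 1 array other than PBS replicate 1. Without Ly6c2, which activated T cells also carry, the summed level of the other markers was 7.70 to 8.07 on the hBD-2 arrays and 7.65 to 7.91 on the PBS arrays in log2 units. Of the 13 markers, 4 (Ly6c2, Marco, Fcgr1 and C1qb) had mean levels of at least 4.74 and 9 did not, and the median difference was 0.05. Differences lay above 0 for 9 of the 13, with the largest for Lyz2 (0.52, limma adjusted p = 0.287), Cd14 (0.32, limma adjusted p = 0.0740) and C1qa (0.31, limma adjusted p = 0.187). The median over all genes was itself above 0 at such low levels, at 0.085 from 3.5 to 4.74 and 0.054 below 3.5. Lyz2, which encodes lysozyme, had 3.80, 4.82, 4.98 and 5.19 on the hBD-2 arrays, against 3.83, 4.48, 3.86 and 4.55 on the PBS arrays, and its groups overlapped. Of 9 mast cell and basophil markers, of which Mcpt8 is one, Cpa3 and Fcer1a were higher past the threshold, where 0.8% of all genes were, and none was lower. The median difference of the 9 was 0.38, and 7 of the 9 lay above 0, among them Gata2 at 0.45 (limma adjusted p = 0.0868) and Prss34 at 0.38 (limma adjusted p = 0.251). Mcpt8 and Cpa3 both met the numbers of the rule. The call of Cpa3, this median, this count and the summed level of the list therefore follow in part from the choice. Cpa3, a mast cell carboxypeptidase, had 5.34, 4.82, 5.47 and 5.94 on the hBD-2 arrays, against 4.44, 4.40, 4.33 and 4.47 on the PBS arrays, a difference of 0.98 (limma adjusted p = 0.0132). Like Mcpt8, it was highest on hBD-2 replicate 4. Fcer1a, a chain of the IgE receptor, had 4.39, 4.17, 4.12 and 4.48 on the hBD-2 arrays, against 3.42, 3.89, 3.87 and 3.72 on the PBS arrays, a difference of 0.57 (limma adjusted p = 0.0323). Quantile normalization ended that call (limma adjusted p = 0.0537), as did leaving out PBS replicate 1, 2 or 4 or hBD-2 replicate 4. The summed level of that list was 8.07 to 8.53 on the hBD-2 arrays and 7.97 to 8.20 on the PBS arrays, and Kit, at the highest level of it, had a difference of -0.67 (limma adjusted p = 0.0744). None of 9 B cell, 8 dendritic cell, 9 neutrophil, 4 NK cell, 4 platelet or 8 stromal and endothelial markers passed in either direction. Their median differences were 0.188, 0.143, 0.111, -0.117, 0.294 and 0.145 in that order, and every B cell and neutrophil marker lay above 0. Of 5 erythroid markers Klf1 was higher (0.42, limma adjusted p = 0.0441) and none was lower. The call of Klf1 ended with either other normalization or without any 1 array other than hBD-2 replicate 1. All 5 erythroid markers lay above 0, with a median difference of 0.206. The largest difference was that of Car1, at 1.204, which did not pass the threshold (limma adjusted p = 0.0921). Its arrays were spread in both groups (SD 0.781 with hBD-2 and 0.663 with PBS, n = 4 each). B cell markers differed more between replicates than between groups. Cd79a, encoding a chain of the B cell receptor, had 5.23, 7.86, 4.80 and 7.76 on the hBD-2 arrays, against 4.50, 6.60, 4.85 and 6.84 on the PBS arrays, high on replicates 2 and 4 of both groups as Mmp12 was. The part of these cells in the values of Mmp12, Nfam1, Trem2 and Mcpt8 was not tested.

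Among nuclear and RNA-binding proteins, Celf5 had the largest difference. It encodes an RNA-binding protein of the CELF family, which regulates splicing and is known from the brain. It had 5.39, 4.92, 5.63 and 5.80 on the hBD-2 arrays, against 4.27, 4.66, 4.78 and 4.69 on the PBS arrays, a difference of 0.84 (SE 0.177), and of 0.56 without hBD-2 replicates 3 and 4. None of the 5 other CELF genes passed the threshold, and the median was 0.00 (0.08 with quantile normalization). Celf2, at the highest level of them, had a difference of -0.30 (limma adjusted p = 0.145). Safb encodes scaffold attachment factor B, which binds chromatin and RNA. It had 8.26, 8.31, 8.64 and 8.74 on the hBD-2 arrays, against 7.81, 7.64, 7.82 and 7.79 on the PBS arrays, a difference of 0.72 (SE 0.121), and its groups were the farthest apart of all 43 genes at 0.44. Its close relatives Safb2 and Sltm had differences of 0.21 each and did not pass the threshold (limma adjusted p = 0.165 and 0.223). The 4 other scaffold attachment genes measured ran from 0.12 to 0.21 with a median of 0.20, and of 0.29 with quantile normalization. None of 12 SR splicing factors or 16 hnRNP genes passed the threshold, with medians of -0.05 and -0.02 that turned to 0.03 and 0.06 with quantile normalization.

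Other nuclear genes among the 43 encode regulators of transcription, DNA repair and the nuclear envelope. Zfp385a encodes a zinc finger protein that binds p53. It had 6.13, 6.24, 5.87 and 6.11 on the hBD-2 arrays, against 5.36, 5.62, 5.35 and 5.44 on the PBS arrays, a difference of 0.64 (SE 0.107). Hivep1 encodes a large zinc finger protein that binds enhancers with kappa B motifs. It had 9.11, 9.15, 9.03 and 9.04 on the hBD-2 arrays, against 8.33, 8.45, 8.54 and 8.63 on the PBS arrays, a difference of 0.59 (SE 0.0941). The hBD-2 arrays of Hivep1 lay within a narrower band (SD 0.0562, n = 4) than those of any other of the 43 genes. Its relative Hivep2 was also higher, at 9.06 ± 0.0506 on the hBD-2 arrays and 8.62 ± 0.123 on the PBS arrays (SD, n = 4 each; difference 0.43, limma adjusted p = 0.0257). The call of Hivep2 was kept with both other normalizations, whereas it ended without PBS replicate 1, 2 or 4 or hBD-2 replicate 3 or 4 (up to a limma adjusted p of 0.0871), and Hivep3 had a difference of -0.03. Hivep2 was the only relative of the 43 genes, over the 8 family lists and the symbol stems read here, that passed the threshold upward.

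Fosl1 encodes Fra-1, a subunit of the AP-1 factor that is induced by growth signals. It had 7.25, 7.42, 7.94 and 7.78 on the hBD-2 arrays, against 6.98, 7.10, 7.07 and 6.90 on the PBS arrays, a difference of 0.58 (SE 0.144). Without hBD-2 replicates 3 and 4 the difference was 0.32. RefSeq places the gene Ccdc85b so that it overlaps Fosl1, and Ccdc85b had a difference of 0.22. Atn1 encodes atrophin 1, a corepressor. It had 8.44, 8.64, 8.44 and 8.42 on the hBD-2 arrays, against 7.90, 7.97, 8.03 and 8.01 on the PBS arrays, a difference of 0.51 (SE 0.0899), with the groups 0.39 apart. Rnf169 encodes a ubiquitin-binding protein of the response to DNA double-strand breaks. It had 8.82, 8.50, 8.64 and 8.58 on the hBD-2 arrays, against 8.17, 8.04, 8.03 and 8.23 on the PBS arrays, a difference of 0.52 (SE 0.0998). Lmna encodes lamins A and C of the nuclear envelope. It had 5.01, 5.45, 5.56 and 5.15 on the hBD-2 arrays, against 4.85, 4.85, 4.65 and 4.26 on the PBS arrays, a difference of 0.64 (SE 0.157). The groups of Lmna were 0.16 apart, and PBS replicate 4 was the low one. The clock repressor gene Nr1d2 differed by 0.51. The homeobox gene Nkx2-4 differed by 0.51, and by 0.21 without hBD-2 replicates 3 and 4.

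Proteins of the spindle, the cytoskeleton and vesicle traffic made up 9 genes, with levels from 5.28 to 9.62. Psrc1 encodes a microtubule-binding protein of the mitotic spindle. It had 7.67, 7.57, 7.66 and 7.43 on the hBD-2 arrays, against 6.97, 6.96, 7.07 and 6.78 on the PBS arrays, a difference of 0.64 (SE 0.0988), with the groups 0.36 apart. Gtse1 encodes a microtubule-binding protein of dividing cells that also restrains p53. It had 9.40, 9.43, 9.20 and 9.38 on the hBD-2 arrays, against 8.81, 8.82, 8.77 and 8.91 on the PBS arrays, a difference of 0.52 (SE 0.0905). Its lowest array was replicate 3 in both groups. Tubb2a encodes a beta-tubulin isotype. It had 6.82, 7.03, 7.24 and 7.08 on the hBD-2 arrays, against 6.67, 6.26, 6.54 and 6.66 on the PBS arrays, a difference of 0.51 (SE 0.121).

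Of the 7 other beta-tubulin genes, none was higher and 2 were lower past the threshold, where 0.8% of all genes were higher and 3.66% lower. The differences of all 7 lay below 0 with each normalization tried (median -0.27), and 5 of them did not pass (limma adjusted p = 0.138 to 0.606). Tubb6 had 5.91, 6.16, 5.90 and 5.56 on the hBD-2 arrays, against 7.15, 7.25, 6.90 and 6.90 on the PBS arrays, and fell by 1.17 (limma adjusted p = 0.000975). Tubb4b was at 8.50 ± 0.182 on the hBD-2 arrays and 9.06 ± 0.0714 on the PBS arrays (SD, n = 4 each) and fell by 0.57 (limma adjusted p = 0.0132), a call lost without PBS replicate 2 (limma adjusted p = 0.0509). Tubb2b, whose sequence is nearly identical to that of Tubb2a, had a difference of -0.13 (limma adjusted p = 0.606). Probes for such close copies may share signal, so the value of Tubb2a is less certain than the others. Tubb5, at the highest level of them, had a difference of -0.15 (limma adjusted p = 0.290). Without hBD-2 replicates 3 and 4 together, Anxa2 and Tubb6 kept their calls, while the other 8 calls among relatives and markers (S100a10, Tubb4b, Hivep2, Cpa3, Fcer1a, Klf1, Ly6c2 and Itgam) were lost.

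Akap13 encodes an anchoring protein for protein kinase A. It had 8.45, 8.24, 8.77 and 8.51 on the hBD-2 arrays, against 7.89, 7.73, 7.93 and 7.98 on the PBS arrays, a difference of 0.60 (SE 0.118). None of 14 other Akap genes passed the threshold (median -0.06). Exoc4 encodes a subunit of the exocyst, which tethers secretory vesicles. It had 10.06, 9.86, 9.82 and 9.78 on the hBD-2 arrays, against 9.43, 9.08, 9.41 and 9.49 on the PBS arrays, a difference of 0.53 (SE 0.113). None of the 9 other exocyst genes passed (median -0.03, and 0.01 with quantile normalization). Tbc1d12 belongs to a family of Rab regulators. It had 5.69, 5.74, 6.00 and 5.80 on the hBD-2 arrays, against 5.03, 5.62, 5.16 and 5.05 on the PBS arrays, a difference of 0.59 (SE 0.137), with PBS replicate 2 close to the hBD-2 arrays. Apbb2 encodes an adaptor that binds the amyloid precursor protein. It had 6.90, 6.40, 6.20 and 6.38 on the hBD-2 arrays, against 5.96, 6.05, 5.71 and 5.80 on the PBS arrays, a difference of 0.59 (SE 0.144). The cilium gene Cfap206 had 6.67, 7.14, 6.81 and 7.01 on the hBD-2 arrays, against 6.53, 6.18, 6.53 and 6.28 on the PBS arrays, a difference of 0.52 (SE 0.127). None of 26 other Cfap genes passed (median 0.10, and 0.04 with quantile normalization). Pdzd4, a PDZ domain gene, differed by 0.53.

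Enzymes and transporters gave 5 genes. Ptp4a3 encodes the phosphatase PRL-3 and had the highest level of the 43 genes, 10.5. It had 10.84, 10.84, 10.74 and 10.58 on the hBD-2 arrays, against 10.20, 10.07, 10.11 and 10.31 on the PBS arrays, a difference of 0.58 (SE 0.0984). Slc19a2 encodes a thiamine transporter. It had 8.19, 8.17, 8.03 and 8.03 on the hBD-2 arrays, against 7.71, 7.60, 7.43 and 7.68 on the PBS arrays, a difference of 0.50 (SE 0.0961). Adh1 encodes an alcohol dehydrogenase that also oxidises retinol. It had 7.50, 7.44, 7.37 and 7.06 on the hBD-2 arrays, against 6.58, 6.69, 6.93 and 6.75 on the PBS arrays, a difference of 0.60 (SE 0.118). None of the 4 other Adh genes passed the threshold (median 0.13, and 0.06 with quantile normalization). Cox6b2 encodes the testis form of a subunit of cytochrome c oxidase. It had 6.67, 6.59, 6.28 and 6.61 on the hBD-2 arrays, against 5.79, 6.04, 5.89 and 6.05 on the PBS arrays, a difference of 0.60 (SE 0.111). Pnliprp1 encodes a pancreatic lipase-related protein. It had 5.68, 5.48, 5.79 and 5.52 on the hBD-2 arrays, against 4.80, 4.87, 5.18 and 5.01 on the PBS arrays, a difference of 0.65 (SE 0.112). None of 6 others of the lipase family passed (median 0.10, and 0.03 with quantile normalization).

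The 6 genes best known from neurons and other excitable cells had levels from 5.00 to 6.23 and a median difference of 0.54. Kcnc1 encodes a voltage-gated potassium channel. It had 6.05, 6.04, 6.53 and 6.07 on the hBD-2 arrays, against 5.36, 5.58, 5.90 and 5.43 on the PBS arrays, a difference of 0.60 (SE 0.144). Replicate 3 was the highest in both groups. Cabp5 encodes a calcium-binding protein of the retina. It had 5.43, 5.64, 5.47 and 5.95 on the hBD-2 arrays, against 5.10, 4.89, 5.23 and 4.95 on the PBS arrays, a difference of 0.58 (SE 0.128). Ucn encodes urocortin, a peptide of the corticotropin-releasing family. It had 6.18, 6.42, 6.72 and 6.71 on the hBD-2 arrays, against 5.80, 5.83, 6.12 and 6.01 on the PBS arrays, a difference of 0.57 (SE 0.134), with the groups 0.06 apart, and of 0.36 without hBD-2 replicates 3 and 4. Kcnip3, a calcium sensor that also binds DNA, differed by 0.51. The neuropeptide Y receptor gene Npy5r differed by 0.51, and by 0.31 without PBS replicate 1. The orphan receptor gene Gpr22 differed by 0.50, and by 0.27 without hBD-2 replicates 3 and 4. The gene overlaps Cog5, which had a difference of 0.06. AI182371, for which no role is given here, had 4.81, 5.12, 5.50 and 4.85 on the hBD-2 arrays, against 4.72, 4.08, 4.51 and 4.59 on the PBS arrays, a difference of 0.60 (SE 0.171), and at 4.77 it had the lowest level of the 43 genes.

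Within the hBD-2 group the genes did not share 1 order of the arrays. The highest hBD-2 array was replicate 1 for 9 genes, replicate 2 for 11, replicate 3 for 16 and replicate 4 for 7. Among the 11708 genes at or above the level minimum, 33.8%, 24.4%, 22.6% and 19.3% were highest on hBD-2 replicates 1, 2, 3 and 4. The lowest hBD-2 array was replicate 1 for 19 of the 43. In 14 genes, among them Safb, Fosl1, Akap13, Ucn, Nkx2-4 and Gpr22, replicates 3 and 4 both lay above replicates 1 and 2. In 11 genes, among them Plaur, Prrg4, Ptp4a3 and Slc19a2, the order was the opposite. The mean over the 43 genes was 6.67, 6.74, 6.79 and 6.78 on the hBD-2 arrays, against 6.06, 6.17, 6.19 and 6.17 on the PBS arrays. The SD over the hBD-2 arrays exceeded that over the PBS arrays in 26 of the 43 genes, while this was so for 63.5% of the 11708 genes at or above the level minimum.

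The differences of all genes moved with their level, and the 43 genes lay at levels throughout it above 4.74. The median difference was 0.09 over the 2085 genes with levels of 4.74 to 5.5, where 14 of the 43 genes lay, 0.01 from 5.5 to 6.5 (13 genes), -0.07 from 6.5 to 7.5 (6 genes), -0.09 from 7.5 to 8.5 (6 genes) and -0.07 above 8.5 (4 genes). The median of the 43 genes was between 0.55 and 0.58 in each of these ranges. The limit of 0.5 in the rule bounds these medians from below, so their likeness follows in part from the choice. The share of all genes higher by at least 0.5 was 1.15% in the lowest range and 0.227% in the highest, and the share lower by as much was 2.83% and 4.77%.

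**Figure D3:**
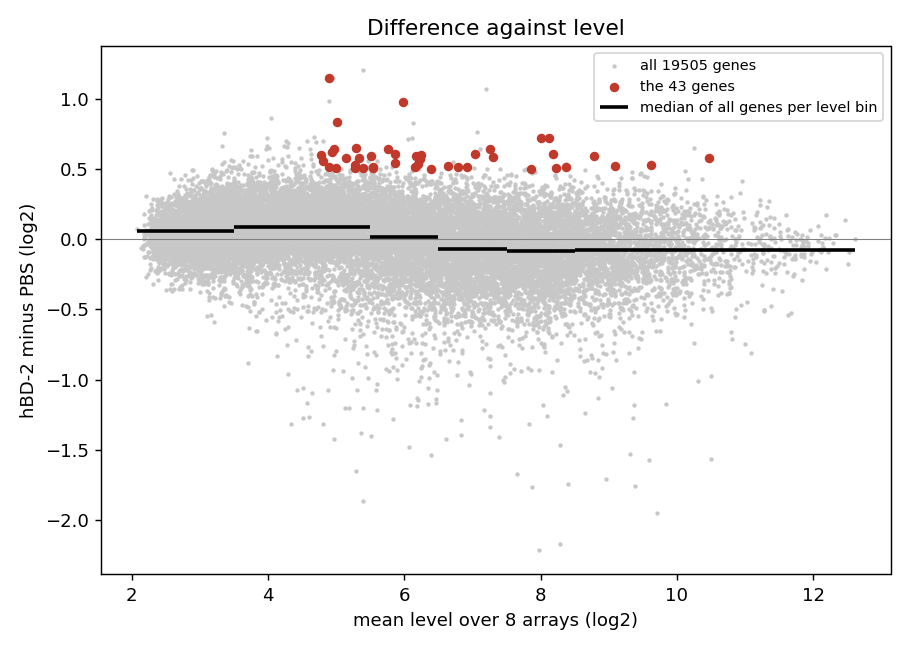
Difference, hBD-2 minus PBS on the log2 scale (y axis), against the mean level over 8 arrays (x axis) for all 19505 genes (grey) and the 43 genes (red), with black bars at the median of all genes in each range of level. The black bars lie above 0 at low levels (0.09 at 4.74 to 5.5) and below 0 at high levels (-0.07 above 8.5), and the red points lie at the upper edge from 4.74 upward.

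When the arrays were quantile normalized again, the 43 differences had a median of 0.60 and a lowest value of 0.45. The differences of all 22 genes at or above a level of 6 became larger, for example 0.82 for Safb, 0.82 for Prrg4, 0.69 for Hivep1 and 0.62 for Gtse1. Those of 18 of the 21 genes at lower levels became smaller, and 8 of them fell under 0.5. Among these Defb25 came to 0.47, Kcnip3 to 0.45 and Mcpt8 to 0.47. Quantile normalization gave 25 larger and 18 smaller differences. Cyclic loess gave 22 larger and 21 smaller, with a lowest value of 0.44, and Plaur, Kcnc1 and Prss12 were larger by the first method and smaller by the second. By either method 33 of the 43 genes still met the full rule. Those that did not were AI182371, Defb25, Gpr22, Kcnip3, Mcpt8, Meltf, Npy5r, Nr1d2, Pdzd4 and Trem2. The rule then took 76 genes with quantile normalization and 68 with cyclic loess, the numbers being met by 0.441% and 0.395% of all genes.

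**Figure D4:**
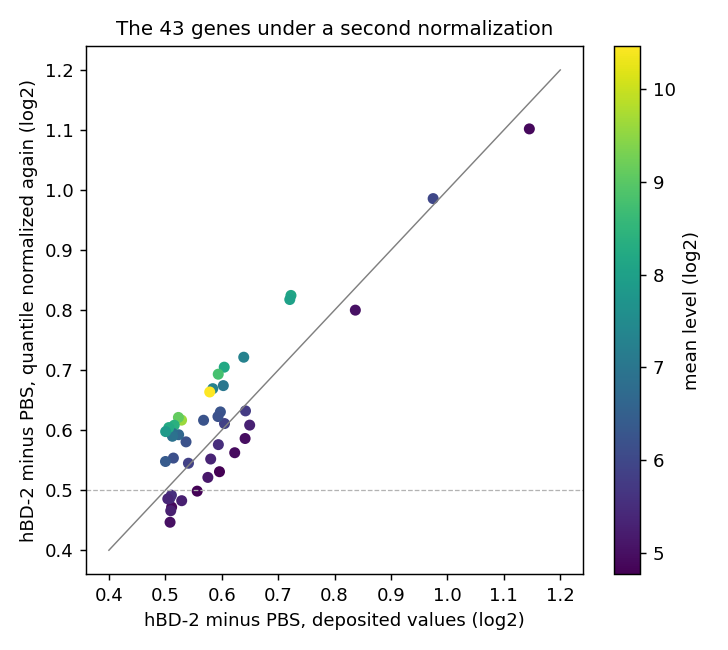
Difference of each of the 43 genes, hBD-2 minus PBS on the log2 scale, from the deposited values (x axis) and after quantile normalization was repeated (y axis), coloured by mean level, with the line of equal values and a dashed line at 0.5. Genes at or above a level of 6 lie above the line of equal values and most others below it, with 8 genes under 0.5.

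The choice was repeated on 6 arrays, leaving out 1 replicate number in both groups. The genes taken each time, a different set from the 43, were read on the pair of arrays left out of the choice. The deposited values were not processed again without that pair. The numbers only name arrays here. Without number 1 the rule took 87 genes, of which 71 (81.6%) were higher on hBD-2 replicate 1 than on PBS replicate 1, where 47.2% of all genes at that level were higher. Without numbers 2, 3 and 4 it took 78, 74 and 74 genes, and 70.5%, 77.0% and 82.4% of them were higher on the hBD-2 array left out, where 45.5%, 43.6% and 43.0% of all genes at that level were. The median difference on the arrays left out was 0.21, 0.15, 0.34 and 0.33 for numbers 1 to 4, against 0.56 each time on the 6 arrays that chose them. The differences of genes chosen this way were thus smaller on arrays that had no part in the choice. Between 16 and 20 of the genes reached 0.5 there. Of the 43 genes, 32 to 34 were among those taken each time. The groups of the 43 cannot overlap on any 6 of the arrays, so that count is largely fixed by the choice.

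**Figure D5:**
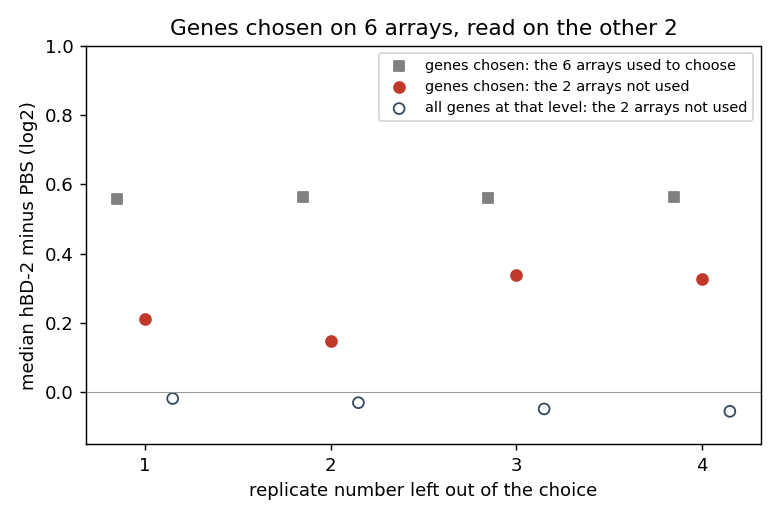
Median difference, hBD-2 minus PBS on the log2 scale (y axis), of genes chosen by the rule on 6 arrays, read on those 6 arrays (grey squares) and on the 2 arrays left out (red points), with all genes at that level on the same 2 arrays (open dark points), for each replicate number left out (x axis). The red points, 0.15 to 0.34, lie between the squares at 0.56 and the open points, which lie just below 0.

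The threshold was passed by none of the 2 to 6 other genes under each of the stems Tenm, Trem, Cabp, Kcnc, Kcnip, Npy, Pdzd and Apbb. Several genes lay close to the limits of the choice. Cd55 (0.5003) and Slc19a2 (0.5006) were just inside the difference limit, and Olig2 (0.4993) and Fstl1 (0.4985) just outside it. Npy5r and Trem2 had groups 0.0026 and 0.0067 apart, while the groups of Shh and Sirpa, with differences of 0.50 each, overlapped by a little. AI182371 (level 4.77) and Meltf (4.81) had the lowest levels inside, and Card14 (4.70, difference 0.69) and Kif13b (4.66, difference 0.52) were just outside. No second probe set was named for any of the 43 genes, so each value rests on 1 probe set. The genes lay on 18 chromosomes, with 7 of the 43 (16.3%) on chromosome 7, which holds 9.34% of all genes.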

How the data were processed

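RNA of splenic T cells was hybridised to Affymetrix whole-transcript arrays, 4 for hBD-2 and 4 for PBS. The deposited log2 values were made by the authors with oligo and RMA, per the submitters' processing notes; their versions and any further steps are not stated there. Of 22203 probe sets, 19572 carried 1 gene symbol in the platform annotation and 2631 were not used. Where a gene had more than 1 probe set (55 genes), its brightest was kept, leaving 19505 genes. Limma 3.58.1 in R 4.3.3 was fitted to all of them (hBD-2 against PBS, empirical Bayes, Benjamini-Hochberg adjustment, threshold 0.05), without a replicate block, and was tested on simulated data. The labels do not tie arrays to mice, so p-values measure the spread between these arrays, which may be technical, and 8 arrays limit the precision.

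The 43 genes, the family and marker lists and the tests were chosen with earlier results of these data known. Values on every array are given for the 20 genes with the largest difference, the 8 others with the widest distance between groups and the 5 others with the highest level. The 10 others are named with their difference. Relatives and markers are named where they pass the threshold or stand at the highest levels of their list, and Tubb2b, Cd79a, Marco, Fcgr1, C1qb, Lyz2, Cd14, C1qa, Gata2, Prss34, Car1, Safb2, Sltm and Hivep3 were named after their values were seen. Relatives are genes of a fixed family list or sharing a symbol stem. Summed levels add linear values over a list and return to log2. Alternatives were quantile and cyclic loess normalization, a replicate block, a variance trend with robust estimation, leaving out genes below 4.74, the mean of probe sets, and leaving out arrays.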

Additional observations from a re-analysis of the deposited data

Results flagged for a closer look

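Among the 86 groups of 4 arrays that the 43 genes give, 6 held 1 array far from the other 3 by Dixon's criterion. Chance flags about 1 in 20 freely chosen groups, but these arrays also served to choose the genes, so that share does not apply and the flags are a description. Of these arrays, 3 were the highest of the hBD-2 group. Mcpt8 stood at 6.05 on hBD-2 replicate 4, Kcnc1 at 6.53 on hBD-2 replicate 3, and Atn1 at 8.64 on hBD-2 replicate 2. Trem2 was lowest on hBD-2 replicate 4, at 5.20. On the PBS side, Safb was lowest on replicate 2, at 7.64, and Npy5r on replicate 1, at 4.71.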

How the results depend on the processing

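Quantile normalization put the median of the 43 differences at 0.60, cyclic loess put it at 0.58, and it was 0.54 to 0.61 when single arrays were left out. The rule itself keeps each difference above 0 whichever arrays are left out, so that sign says nothing about stability. The rule took 76 genes with quantile normalization, 68 with cyclic loess, 66 with no level minimum (chosen after seeing the data), and 38 to 97 when single arrays were left out, of which 29 to 39 were among the 43. With single arrays left out, the groups of the 43 genes still cannot overlap, so that last count is largely fixed by the choice. Over all genes, 156 were higher and 713 lower by limma. A variance trend with robust estimation gave 479 and 1554, leaving out genes at low levels 349 and 1188, and leaving out hBD-2 replicates 3 and 4 together 16 and 112. Single arrays left out gave 33 to 322 higher and 279 to 1074 lower, the fewest without PBS replicate 1 and the most without hBD-2 replicate 1. The causes were not tested beyond the fewer genes or arrays that some of these settings use. The replicate block gave 159 higher and 698 lower genes. It ended the calls of Fcer1a and Klf1 and no other call of a named relative or marker. Same-numbered arrays had deviations that correlated by 0.0048 to 0.181, and arrays of different numbers by -0.154 to 0.0906. Of the 4 hBD-2 arrays, 3 correlated best with their own number. These values do not settle whether the numbers mark pairs, and the numbers were not taken as pairs. Signal over background is not in the deposited values, so genes at low levels are the least certain.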
